A study of Mus musculus with 8 samples.

Results

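The Dlx, Irx, Isl, Lhx, Msx, Nkx, Otx, Pitx, Vax, En, Gbx and Emx genes were followed through inhibition of EZH1 and EZH2 and knockdown of Ring1a in mouse fibroblasts. Members were the rows of the count table whose symbol starts with 1 of these 12 family names and a number and does not end in os, ot, as or Rik. This rule gave 55 of the 24062 gene rows. It kept 52 protein-coding genes and 3 antisense or long noncoding RNAs, Dlx6os1, Dlx6as2 and Otx2os1, whose symbols end in a number. After removal of low rows 24 members were tested and 31 were not, of which 7 had 0 counts in all 8 libraries.

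The cells were immortalized mouse embryonic fibroblasts labelled 6KO, and the labels give knockout of Setdb1, Suv39h1, Suv39h2, Ehmt1, Ehmt2 and Ring1b in all 4 groups. The first 5 genes encode H3K9 methyltransferases, and Ring1b (Rnf2) is a ubiquitin ligase of Polycomb repressive complex 1 (PRC1). Cells with a control shRNA made up the control group, and those with a Ring1a (Ring1) shRNA made up the knockdown group. Adding DS3201 to the former gave the inhibitor group, and adding it to the latter gave the combined group. DS3201, an inhibitor of EZH1 and EZH2, was given at 1 uM for 7 days, and cells with the lentiviral shRNAs were selected with BSD at 7 ug/ml for 3 days. Each group had 2 poly(A) RNA libraries, called set 20 and set 28 after the prefix of their columns, so n = 2 for each group. The labels name the replicates as separate batches but not as separate cultures, so p-values reflect how far the paired libraries of a group lay apart, and that may be technical.

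Total counts ran from 12738585 to 23688253 per library, and 3 counts then equal 0.122 to 0.265 counts per 1000000 counts (CPM, scaled as all levels here). Ring1 lay between 7.51 and 20.4 CPM in the 4 libraries with the control shRNA and between 1.41 and 4.51 CPM in the 4 with the Ring1a shRNA. The set 28 inhibitor library had the lowest total and the lowest TMM scaling factor, 0.889 beside 0.971 to 1.05 in the others. Counts of the genes labelled as knocked out were not at 0, from 4.33 to 13.1 CPM for Setdb1 to 98.9 to 217 CPM for Ehmt2, with Ring1b (Rnf2) at 26.4 to 89.0 CPM. Counts per gene do not show which part of a gene was deleted, and no library without the knockouts was analysed here, so these levels check nothing. The fibroblast genes Col1a1 and Vim were abundant, at 3052 to 6954 CPM and 1762 to 2879 CPM. In bulk RNA, more expressing cells and more RNA per cell cannot be told apart.

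Homeobox genes of these families encode transcription factors that bind DNA through a homeodomain and give regions of the embryo their identity. Engrailed, Emx, Otx, Vax and Gbx genes pattern the brain and eye, Dlx and Msx genes the jaws, limbs and skull, and Iroquois genes the neural tube, heart and limb. LIM and Nkx factors specify neurons, pituitary, pancreas, heart and skeleton. In most differentiated cells the promoters of such genes lie in CpG islands and carry H3K27me3, which EZH1 and EZH2 deposit as part of Polycomb repressive complex 2 (PRC2). PRC1 binds the same islands and ubiquitinates histone H2A.

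The stretches before the start of 3 LIM genes are shown because their RNA took different courses with DS3201. Lhx4 was at 0 without it, Lhx2 was present and rose with the replicate block, and Lhx6 was present and did not pass. Each is the 250 bases before a RefSeq start on the gene's strand (GRCm38.p6), with CpG dinucleotides in capitals, and none overlaps an exon annotated in GENCODE M21. They lie at chr2:38339031-38339280 on the plus strand for Lhx2, chr1:155742028-155742277 on the minus strand for Lhx4 and chr2:36105409-36105658 on the minus strand for Lhx6. That of Lhx4 lies within an intron of the gene as annotated, which has a start farther upstream, and the others lie outside their genes.
Lhx2: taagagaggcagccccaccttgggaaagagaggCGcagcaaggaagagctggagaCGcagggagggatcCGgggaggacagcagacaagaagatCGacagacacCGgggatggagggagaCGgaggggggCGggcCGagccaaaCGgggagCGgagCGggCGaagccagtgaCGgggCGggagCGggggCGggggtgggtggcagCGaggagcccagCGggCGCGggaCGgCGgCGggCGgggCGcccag
Lhx4: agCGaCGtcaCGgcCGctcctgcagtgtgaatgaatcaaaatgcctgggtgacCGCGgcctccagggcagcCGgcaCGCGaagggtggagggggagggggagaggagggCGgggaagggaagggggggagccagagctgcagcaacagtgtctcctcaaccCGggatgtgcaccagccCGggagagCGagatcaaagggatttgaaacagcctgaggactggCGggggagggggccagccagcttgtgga
Lhx6: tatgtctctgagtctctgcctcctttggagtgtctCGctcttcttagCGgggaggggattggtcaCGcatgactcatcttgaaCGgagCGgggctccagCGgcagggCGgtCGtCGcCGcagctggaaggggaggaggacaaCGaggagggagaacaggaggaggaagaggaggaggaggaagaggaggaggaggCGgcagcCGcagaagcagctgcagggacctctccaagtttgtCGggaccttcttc

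These stretches held 25 CpG in Lhx2, 14 in Lhx4 and 14 in Lhx6, so that CpG number in the stretches shown did not part Lhx4 from Lhx6. Over all matched RefSeq starts the mean was 24.5 CpG for Lhx2 (2 starts) and 12.7 for Lhx6 (3 starts), while Lhx4 had 1 start. RefSeq start sites were matched for 36 of the 55 members. In 25 of these the 250 bases before a start overlapped an annotated exon of the gene itself. The overlap was only 1 base in Isl1, Isl2, Lhx1, Msx3 and Pitx3 and 3 bases in Gbx2. In 10 members the 250 bases before a start lay wholly within the gene's exons, so that the shares below are partly of transcribed sequence. The median ratio of observed to expected CpG was 0.709 over these 36 and 0.539 over the 16781 genes of the table with a promoter entry. It was 0.733 over the 6 members with a promoter that rose with DS3201 in the fit with the replicate block (described below) and 0.739 over the 10 tested members that did not. The GC box GGGCGG, which itself holds a CpG, occurred on either strand in 22 of the 36 (61.1%) and in 46.6% of the 16781 genes. A gene counted once as holding a motif if the stretch before any of its RefSeq starts did. TATAAA occurred in 4 (11.1%, against 13.2%) and TAATTA, a homeodomain core, in 3 (8.3%, against 5.0%). These are descriptions of letters in a window and were not tested.

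Without DS3201 the fibroblasts already held RNA of some members of most families. Per kilobase of annotated exon, the control means were 6.71 CPM for Irx5, 3.02 for En1, 2.69 for Msx1, 2.35 for Dlx2, 2.07 for Lhx6, 1.92 for Otx1, 1.67 for Lhx2 and 1.64 for Msx2. The Iroquois gene Irx5 was thus the highest member at the RNA level on this scale. Of all 55 members, 15 had a mean of at least 1 CPM over the 4 libraries without DS3201 and 40 were below it. The heat map of levels by library gives the members in CPM, not per kilobase, so its order differs.

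**Figure D1:**
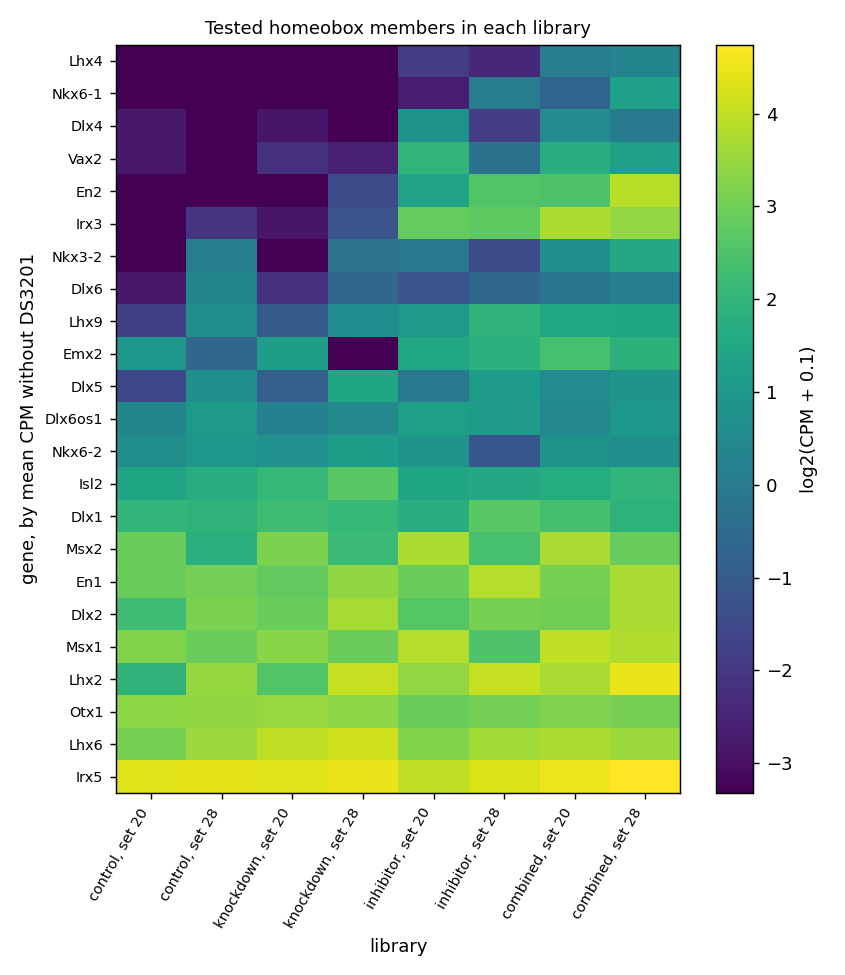
Heat map of 23 of the 24 tested members (rows, ordered by mean CPM without DS3201) in the 8 libraries (columns), coloured by log2(CPM + 0.1). The uppermost 6 genes, Lhx4 to Irx3, are dark in the 4 libraries without DS3201 and lighter with it, and Irx5 in the lowest row is bright throughout.

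With DS3201, members that had been near 0 rose, while most members already expressed did not pass the test. The main comparison set the 4 libraries with DS3201 against the 4 without, over both shRNAs. Counts were tested with edgeR's quasi-likelihood test, with p-values adjusted by Benjamini-Hochberg over all 15287 rows tested (14393 genes and 894 repeat subfamilies) and a threshold of 0.05. Irx3, En2, Vax2 and Dlx4 rose, 4 of the 24 tested members, where 5.24% of all rows rose. With the set prefix as replicate block, which takes the difference between the sets out of the spread, Lhx2, Lhx4, Lhx9, Msx2 and Nkx6-1 also rose, 9 members in all, where 12.9% of all rows rose. The median difference was 0.61 log2 over the 24 tested members and 0.04 over all rows. No member fell in either fit (0 at an unadjusted p under 0.05, and 0 by DESeq2), where 0.216% of all rows fell without the block, 4.16% with it and 1.72% by DESeq2. DESeq2 called 5 members higher, with Nkx6-1 added, where 8.79% of all rows rose.

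Of the 9 members that rose with the block, 7 were under 1 CPM without DS3201, and Lhx2 and Msx2 were above it. Of 9 tested members under 1 CPM without DS3201, 7 rose in the fit with the block (77.8%), as did 1218 of 2142 genes at that level (56.9%). Of 15 tested members at 1 CPM or more, 2 rose (13.3%), as did 667 of 12251 genes (5.44%). A low member passed the filter only through the libraries in which it was higher, so these shares describe the members that passed and do not set the families apart.

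Irx3, an Iroquois factor of neural tube and limb patterning (chr8, 91798525 to 91802067), was at 0 and 0.134 CPM in the control in set 20 and set 28, and at 0.0406 and 0.337 CPM in the knockdown. It was at 7.08 and 6.54 CPM in inhibitor and 13.3 and 10.7 CPM in combined libraries. All 4 libraries with DS3201 lay above all 4 without it, and Irx3 rose by 6.39 ± 0.79 (SE) on the log2 scale (adjusted p = 0.0105 in edgeR, and 0.000787 with the replicate block). Per kilobase of exon its level in the combined group was 4.35 CPM, beside 7.95 CPM for Irx5.

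En2, an engrailed factor of the midbrain and cerebellum (chr5, 28165694 to 28172166), had 0 counts in both control libraries and in the set 20 knockdown library, and 0.269 CPM in the set 28 knockdown library. In sets 20 and 28 it reached 2.49 and 5.74 CPM in inhibitor and 5.46 and 14.8 CPM in combined libraries. The groups did not overlap, and set 28 was the higher set in both groups with DS3201. En2 rose by 7.74 ± 1.19 log2 (adjusted p = 0.0258 in edgeR, and 0.000988 with the block).

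Vax2, a factor of the ventral retina (chr6, 83711264 to 83738313), was at 0.0475 and 0 CPM for control and at 0.122 and 0.0673 CPM for knockdown. It was at 3.79 and 0.707 CPM in inhibitor and 3.20 and 2.36 CPM in combined libraries, in sets 20 and 28. Its rise was 5.39 ± 0.82 log2 (adjusted p = 0.0188 in edgeR, and 0.00163 with the block), and the set 28 inhibitor library was the lowest of the 4. The antisense row Vax2os had 0 to 0.0812 CPM without DS3201 and 0.353 to 1.00 CPM with it. Whether counting used strand is not given, so reads of Vax2 and Vax2os cannot be told apart.

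Dlx4, a distal-less factor (chr11, 95140447 to 95146263), had 2 counts over the 4 libraries without DS3201 and 67 over the 4 with it. In set 20 it was at 0.0475 CPM for control and 0.0406 CPM for knockdown, and in set 28 at 0 for each. Its levels with DS3201 in sets 20 and 28 were 1.64 and 0.177 CPM in inhibitor and 1.38 and 0.894 CPM in combined libraries. The ratio was 41.7 with a 95% counting interval (exact binomial) of 11.1 to 352, and Dlx4 rose (adjusted p = 0.0469 in edgeR, and 0.00516 with the block). For fits that left out 1 library, no share of all rows is given here or below, so their counts describe the members alone. In the fits that left out 1 library with the block, each of Irx3, En2, Vax2 and Dlx4 rose in 8 of 8. Without the block Irx3 rose in 7 of 8, En2 in 3, Vax2 in 2 and Dlx4 in 0, and the number of members called was 0 without the set 20 combined library, 1 without either control library or the set 28 combined library, 2 without either knockdown library or the set 28 inhibitor library, and 3 without the set 20 inhibitor library. With the block 4 to 9 passed, the fewest without the set 20 combined library (4), the set 28 combined library (5) and the set 20 control library (5).

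**Figure D2:**
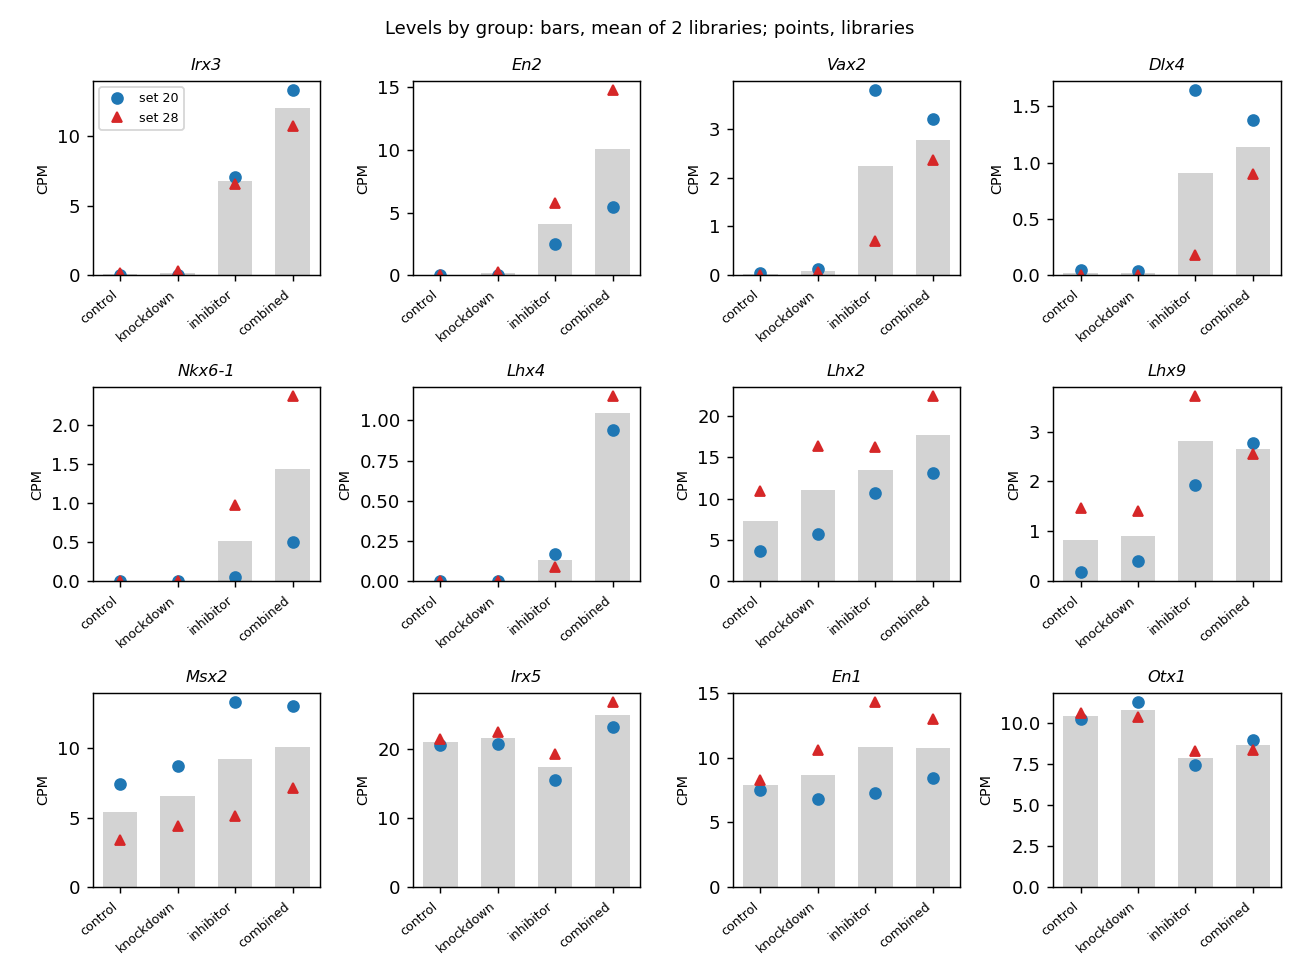
Levels in CPM (vertical axes, from 0) of the 9 members that rose with DS3201 and of Irx5, En1 and Otx1, by group (horizontal axes). Grey bars are means of 2 libraries, circles set 20 and triangles set 28. Irx3, En2, Vax2, Dlx4, Nkx6-1 and Lhx4 start at or near 0, while Lhx2 and Msx2 are present in every group and differ between the sets.

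Nkx6-1 and Lhx4 had 0 counts in all 4 libraries without DS3201. Nkx6-1, a factor of pancreatic beta cells and of the ventral neural tube (chr5, 101658139 to 101664996), was at 0.0566 and 0.972 CPM in inhibitor and 0.502 and 2.36 CPM in combined libraries, in sets 20 and 28. It was at least 23.7-fold higher with DS3201, with 3 counts over the 4 libraries as the floor, and rose with the block (edgeR adjusted p = 0.0134, and 0.124 without it). Lhx4, a LIM factor of the pituitary (chr1, 155698031 to 155751684), was at 0.170 and 0.0883 CPM in inhibitor and 0.942 and 1.15 CPM in combined libraries. It was at least 15.4-fold higher with DS3201 and rose with the block (edgeR adjusted p = 0.0278), while without the block its adjusted p lay at the threshold (0.05).

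Lhx2, Lhx9 and Msx2 were measurable without DS3201 and passed only with the replicate block. Lhx2, a LIM factor of forebrain and eye (chr2, 38339281 to 38369733), was at 3.71 and 10.9 CPM in control, 5.77 and 16.4 in knockdown, 10.7 and 16.3 in inhibitor and 13.1 and 22.4 CPM in combined libraries. The groups overlapped, and set 28 was the higher set in every group. Within each set the libraries with DS3201 exceeded the control. In set 28, however, the knockdown library (16.42 CPM) lay slightly above the inhibitor library (16.25 CPM). Its rise with the block was 0.92 ± 0.21 log2 (edgeR adjusted p = 0.0271, and 0.476 without it).

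Lhx9, a LIM factor of gonad formation (chr1, 138825186 to 138848577), was at 0.190 and 1.48 CPM in control, 0.406 and 1.41 in knockdown, 1.93 and 3.71 in inhibitor and 2.76 and 2.55 CPM in combined libraries. All libraries with DS3201 lay above all without it, and its rise with the block was 1.91 ± 0.48 log2 (edgeR adjusted p = 0.0364, and 0.292 without it). Msx2, a target of BMP signalling in the skull (chr13, 53466884 to 53473074), was at 7.41 and 3.36 CPM in control, 8.73 and 4.38 in knockdown, 13.3 and 5.12 in inhibitor and 13.0 and 7.15 CPM in combined libraries. Here set 20 was the higher set, and the rise with the block was 0.69 ± 0.18 log2 (edgeR adjusted p = 0.0377, and 0.515 without it). With the block and 1 library left out, Lhx2, Lhx4 and Lhx9 each passed in 4 of 8 fits, Nkx6-1 in 5 and Msx2 in 2.

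**Figure D3:**
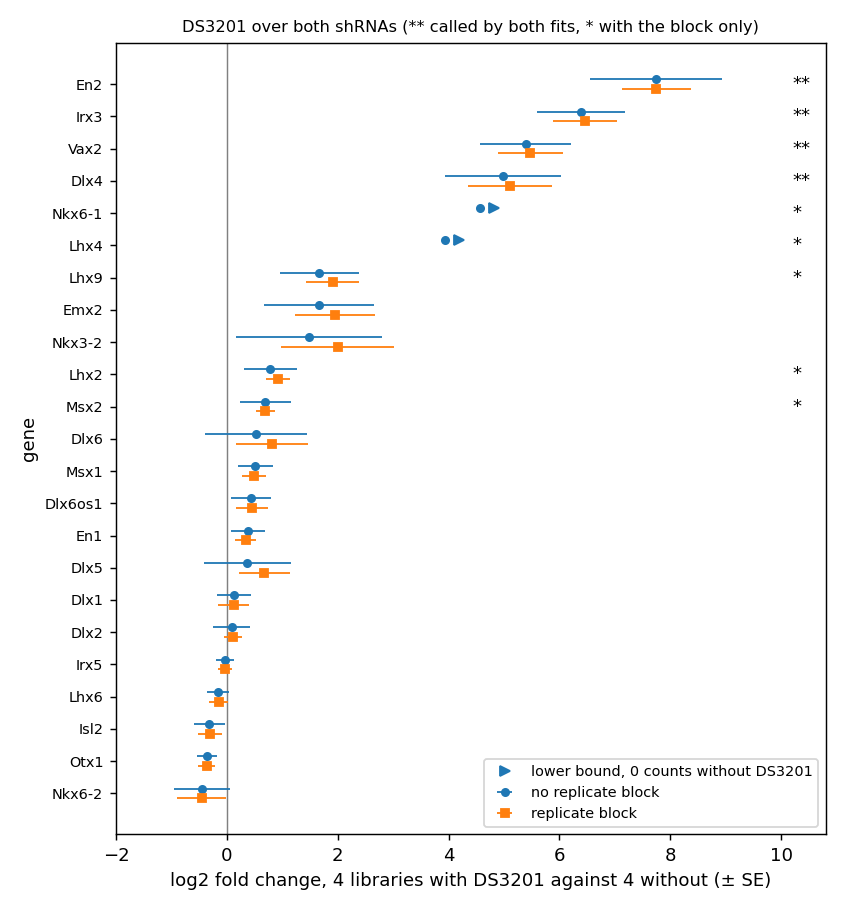
Log2 fold change (horizontal axis) of 23 of the 24 tested members (vertical axis) for 4 libraries with DS3201 against 4 without, from edgeR without the replicate block (circles) and with it (squares), with bars of 1 SE. Arrows mark lower bounds for Nkx6-1 and Lhx4, which had 0 counts without DS3201. En2, Irx3, Vax2 and Dlx4 are the uppermost and were called in both fits.

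The remaining 15 tested members did not pass in either fit. Irx5, the neighbour of Irx3, was at 20.5 and 21.4 CPM in control, 20.6 and 22.4 in knockdown, 15.5 and 19.3 in inhibitor and 23.0 and 26.7 CPM in combined libraries. Its difference with DS3201 was -0.03 ± 0.16 log2 (edgeR adjusted p = 0.947), and its groups overlapped. In the engrailed family En1 (chr1, 120602418 to 120607992), which marks limb ectoderm and a dermal fibroblast lineage, was at 7.51 and 8.32 CPM in control, 6.82 and 10.6 in knockdown, 7.31 and 14.3 in inhibitor and 8.48 and 13.0 CPM in combined libraries. The difference of En1 was 0.38 ± 0.30 log2 (edgeR adjusted p = 0.603).

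Otx1, a forebrain factor (chr11, 21994764 to 22002897), was the member whose 4 libraries with DS3201 all lay below the 4 without. It was at 10.3 and 10.6 CPM in control, 11.3 and 10.4 in knockdown, 7.48 and 8.30 in inhibitor and 8.98 and 8.37 CPM in combined libraries. The difference was -0.36 ± 0.17 log2 (edgeR adjusted p = 0.354, and 0.158 with the block), which did not pass. Of all rows 5.28% lay wholly below in this way and 12.3% wholly above, where 8 of the 24 tested members lay wholly above. Of these 8, 7 were among the 9 members under 1 CPM without DS3201, a level at which 51.7% of all genes lay wholly above. At 1 CPM or more it was 1 of 15 members (6.67%) and 4.9% of genes. Low members passed the filter only through libraries in which they were higher, so these shares do not set the families apart.

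The highest members of the Dlx, Lhx, Msx, Isl and Nkx families did not pass either. Dlx2, of GABAergic interneurons and jaw patterning (chr2, 71543408 to 71546754), was at 4.61 and 8.79 CPM in control, 7.39 and 12.9 in knockdown, 6.00 and 8.48 in inhibitor and 7.85 and 13.2 CPM in combined libraries. Lhx6, of cortical interneurons (chr2, 36081953 to 36105408), was at 8.51 and 11.4 CPM in control, 15.6 and 17.8 in knockdown, 9.12 and 12.4 in inhibitor and 13.4 and 11.6 CPM in combined libraries. The highest Lhx6 levels were thus those of the knockdown libraries. Msx1, of tooth and palate (chr5, 37820485 to 37824583), was at 9.27 and 7.38 CPM in control, 9.83 and 7.34 in knockdown, 14.3 and 5.65 in inhibitor and 15.5 and 13.7 CPM in combined libraries. Its antisense row Msx1os lay between 4.43 and 9.17 CPM, and reads of Msx1 and Msx1os cannot be told apart. None of Dlx2, Lhx6 and Msx1 passed for DS3201 (edgeR adjusted p = 0.933, 0.764 and 0.482).

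Isl2, of motor neurons (chr9, 55538672 to 55546180), was at 2.61 and 3.15 CPM in control, 4.06 and 6.26 in knockdown, 2.66 and 2.83 in inhibitor and 3.08 and 3.90 CPM in combined libraries. Nkx6-2, of ventral neural tube and oligodendrocytes (chr7, 139579376 to 139582797), lay between 1.47 and 2.22 CPM in 7 libraries and at 0.353 CPM in the set 28 inhibitor library. With the block and without the set 20 inhibitor library, so that this library stood alone for its group, Nkx6-2 was called lower. The Gbx genes were not tested: Gbx2, of the midbrain-hindbrain boundary (chr1, 89927956 to 89931179), had 0 counts in both control libraries, 0 and 0.0673 CPM in knockdown libraries, 0 and 0.707 CPM in inhibitor and 0.502 and 1.41 CPM in combined libraries. It passed in the combined group against control in fits with the block that left out 1 knockdown or inhibitor library, where the filter kept it. Those calls rest on leaving a library out: Gbx2 had 0 counts in the set 20 inhibitor library and was not tested with all 8 libraries.

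Emx2, Nkx3-2, Dlx5 and Dlx6 were over 2-fold apart between the sets without DS3201, and none of them passed for DS3201. Emx2, of cortex and urogenital tract (chr19, 59458372 to 59465357), was higher in set 20 without DS3201. It was at 1.81 and 0.537 CPM in control, 2.19 and 0 in knockdown, 2.77 and 3.44 in inhibitor and 5.15 and 3.51 CPM in combined libraries, with all 4 DS3201 libraries above the others. It did not pass (edgeR adjusted p = 0.463, and 0.112 with the block). The antisense row Emx2os lay between 0.0673 and 1.36 CPM, and reads of Emx2 and Emx2os cannot be told apart. Nkx3-2, a cartilage factor, had 0 counts in set 20 of the control and the knockdown and 0.940 and 0.740 CPM in set 28. With DS3201 it was at 0.849 and 0.265 CPM in inhibitor and 1.57 and 2.81 CPM in combined libraries (edgeR adjusted p = 0.642, and 0.224 with the block).

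**Figure D4:**
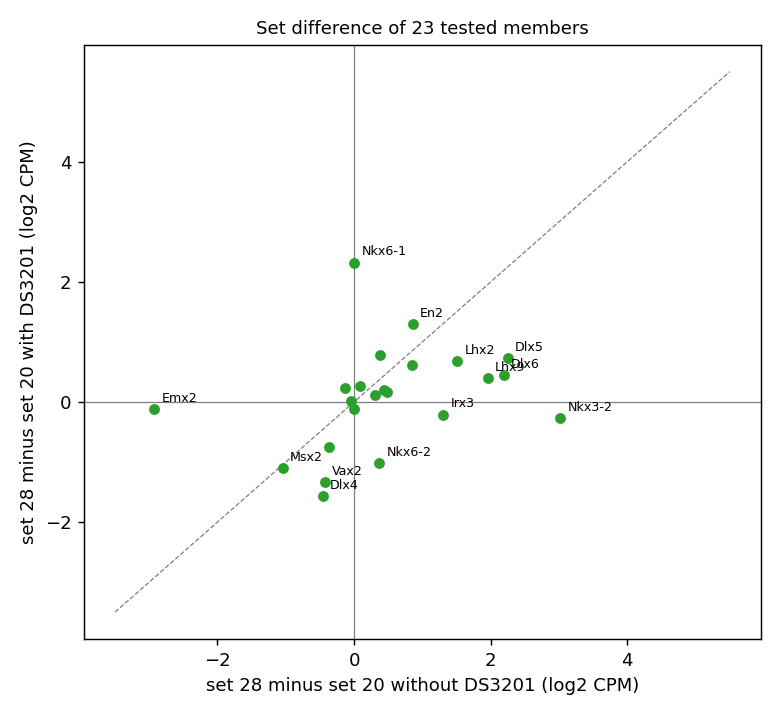
Difference between set 28 and set 20 in log2 CPM for 23 of the 24 tested members, without DS3201 (horizontal axis) and with it (vertical axis), each the mean of 2 libraries per set. The dashed line marks equal differences. Nkx3-2 lies farthest right, at 3.02 without and -0.27 with DS3201, and Emx2 farthest left, at -2.92 and -0.12.

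Without DS3201, 9 of the 24 tested members (37.5%) and 14.1% of all rows were over 2-fold apart between the sets. Among them, set 28 was higher in Nkx3-2, Dlx5, Dlx6, Lhx9, Lhx2 and Irx3 and lower in Emx2 and Msx2. Some of these rest on few counts. In control and knockdown Irx3 had 0 and 1 counts in set 20 and 2 and 5 in set 28. Dlx6 had 1 and 3 counts in set 20 and 17 and 8 in set 28. With DS3201 the set difference was 0.72 log2 for Dlx5 and 0.44 for Dlx6, against 2.25 and 2.19 without it. These are descriptions with 1 library per group and set, and the labels say of the replicates only that they were separate batches.

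Several members lie close to each other, and the values of neighbours are given side by side. Irx3 and Irx5 lie 555.6 kb apart on chr8 (GENCODE M21, GRCm38), and Irx3 rose while Irx5 differed by -0.03 log2. Irx6, 298.0 kb beyond Irx5, had 2 counts in all, both in the combined group. On chr13 Irx1 and Irx2 had 0 counts in every library, and Irx4 had 3 counts, all with DS3201. Dlx4 rose and Dlx3, 15.2 kb away, had 1 count without DS3201 and 18 with it. Dlx1 and Dlx2, 9.4 kb apart, differed with DS3201 by 0.14 and 0.08 log2 (edgeR adjusted p = 0.877 and 0.933). Dlx5 and Dlx6, 9.2 kb apart, differed by 0.37 and 0.52 log2 (edgeR adjusted p = 0.865 and 0.834). The noncoding RNA Dlx6os1, which spans the Dlx6 gene, differed by 0.43 log2 (edgeR adjusted p = 0.613), and its reads cannot be told apart from those of Dlx6.

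The 31 members below the filter were seen in more libraries with DS3201, and most in the combined group. At least 1 count was found for 3 and 7 of them in control libraries (9.68% and 22.6%), 5 and 8 in knockdown libraries, 13 and 13 under DS3201 alone (41.9% each) and 20 and 21 in the combined libraries (64.5% and 67.7%). Of the 9669 genes below the filter, 22.9% and 20.1% had a count for control, 27.0% and 22.1% for knockdown, 40.5% and 31.5% under DS3201 alone and 42.3% and 38.5% in the combined libraries. The combined libraries held 15377902 and 15701329 counts, beside 16908517 and 12738585 in the inhibitor group, so that the combined library was the shallower in set 20 and the deeper in set 28. The part of depth in these shares was not tested. Summed over the 31 members the level was 0.143 and 1.07 CPM in control, 0.406 and 1.48 in knockdown, 2.55 and 2.56 in inhibitor and 4.58 and 8.18 CPM in combined libraries. These values were not tested, and the largest total of any such member was 44 counts over all libraries.

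**Figure D5:**
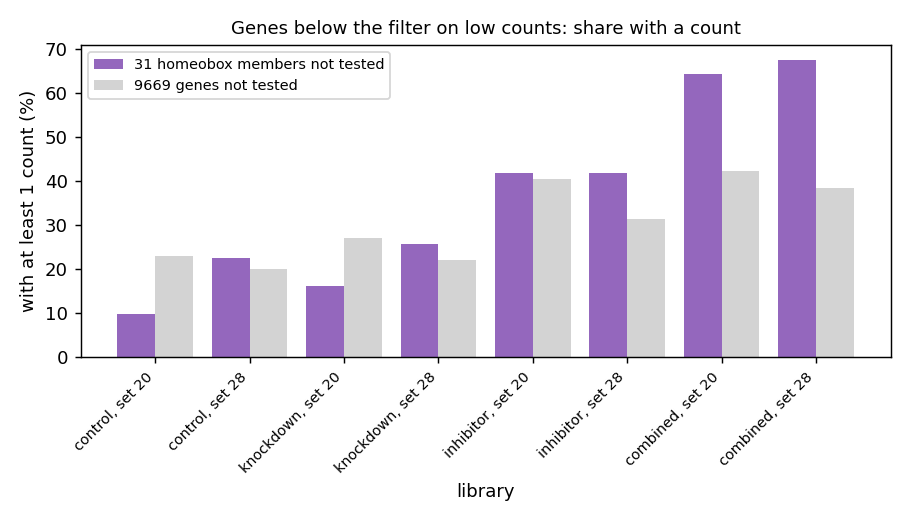
Share of genes with at least 1 count (vertical axis, percent) in each library (horizontal axis), for the 31 members below the filter on low counts (purple) and for all 9669 genes below it (grey). The members reach 64.5% and 67.7% in the combined libraries, where all such genes reach 42.3% and 38.5%.

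Named members below the filter had single-digit to low double-digit counts. Otx2, of forebrain and eye (chr14, 48657677 to 48673819), had 0 counts without DS3201, 1 and 1 in inhibitor and 2 and 16 in combined libraries. Nkx2-2, of the ventral neural tube and pancreas, had 0 counts without DS3201, 2 and 0 in inhibitor and 4 and 13 in combined libraries. Lhx5, a LIM factor of the forebrain, had 1 and 0 counts in control libraries, 1 and 0 in knockdown libraries, 0 and 1 in inhibitor and 4 and 7 in combined libraries. The neighbour of Nkx2-2, Nkx2-4, had 0 counts throughout, as did Nkx1-1, Nkx1-2, Nkx2-6 and Otx2os1. A count of 0 in the deepest library, of 23688253 counts, allows a level of up to 0.122 CPM.

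Within each shRNA fewer members passed. These comparisons use the same libraries as the one over both shRNAs. With the control shRNA no member passed without the block (0 of 24, 5 at an unadjusted p under 0.05, 3 by DESeq2), where 0.726% of all rows rose in edgeR and 4.78% in DESeq2. No member fell (0 at an unadjusted p under 0.05 with or without the block), where 0% of all rows fell without the block, 0.706% with it and 0.438% by DESeq2. With the block Dlx4, En2, Irx3 and Vax2 rose, where 6.62% of all rows rose. En2 was at least 45.1-fold higher than in the control, whose 2 libraries held 0 counts (edgeR adjusted p = 0.00911 with the block, and 0.126 without). Vax2, with 1 count in the control, had a ratio of 93.0 (counting interval 16.2 to 3723, edgeR adjusted p = 0.0139 with the block). With the block and without 1 library, 1 to 4 members rose, En2 alone without the set 20 control library and Irx3 and Vax2 without either combined library.

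With the Ring1a shRNA no member passed without the block (0 of 24, 6 at an unadjusted p under 0.05, 3 by DESeq2), where 0.602% of all rows rose in edgeR and 4.06% in DESeq2. No member fell (0 at an unadjusted p under 0.05 and 0 by DESeq2), where 0% of all rows fell without the block, 0.824% with it and 0.249% by DESeq2. With the block Dlx4, En2, Irx3, Lhx4, Nkx6-1 and Vax2 rose, where 6.05% of all rows rose. Lhx4 was at least 13.8-fold and Nkx6-1 at least 18.8-fold higher than in the knockdown libraries, which held 0 counts of either (edgeR adjusted p = 0.0361 and 0.0366 with the block). With the block, Emx2, En2 and Irx3 were called without the set 20 knockdown library, En2, Irx3 and Vax2 without that of set 28, and 0 members without either combined library.

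The combined group exceeded the control in the same members and in Lhx2. Irx3 rose without the block, 1 of 24 tested members, where 1.43% of all rows rose in edgeR, and 3 members rose by DESeq2, where 6.01% of all rows rose. No member fell (0 at an unadjusted p under 0.05 and 0 by DESeq2), where 0.0327% of all rows fell without the block, 2.06% with it and 0.824% by DESeq2. Irx3 had 2 counts in the control and 380 in the combined group, so the ratio was 216 (counting interval 59.5 to 1792; edgeR adjusted p = 0.0459, and 0.0038 with the block). With the block Dlx4, En2, Irx3, Lhx2, Lhx4, Nkx6-1 and Vax2 rose, 7 of 24, where 9.21% of all rows rose. En2 was at least 120.6-fold higher than in the control (edgeR adjusted p = 0.00375 with the block), and Lhx2 rose by 1.41 ± 0.30 log2 (edgeR adjusted p = 0.0297 with the block). With the block and without 1 library, 1 to 11 members passed, and the share of all rows in those fits is not given here. The lowest counts came without a control or a combined library, and the highest without an inhibitor library, when Dlx2, Gbx2, Msx1 and Msx2 were also called. This comparison shares its control libraries with DS3201 under control shRNA and with the knockdown without DS3201.

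No tested member passed for the Ring1a shRNA. Of 22 tested PRC1 subunits 0 fell for this shRNA in edgeR, without or with the block and without or with DS3201. Ring1, the target of the shRNA, was among them, so the lack of a call does not show that a member was unaffected. Without DS3201 no member passed in edgeR without or with the block (1 and 3 higher at an unadjusted p under 0.05, 0 by DESeq2), where 0% of all rows rose or fell in edgeR and 0.00654% fell in DESeq2. The member nearest to a call was Lhx6, at 0.75 ± 0.28 log2 (edgeR adjusted p = 1). Dlx2 and Isl2 differed by 0.60 ± 0.48 and 0.84 ± 0.40 log2 (edgeR adjusted p = 1 for each) and were higher in the knockdown in both sets. In all, 12 of the 24 tested members were higher in both sets and 1, Dlx6os1, lower in both, where 35.3% and 30.3% of all rows were. Among the 12, in sets 20 and 28, Irx3 had 0 and 2 counts in control and 1 and 5 in knockdown. Vax2 had 1 and 0 in control and 3 and 1 in knockdown. Irx5 differed by 0.005 log2 in set 20. This count is a description and was not tested.

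With DS3201 no member passed for the Ring1a shRNA either (1 and 3 higher at an unadjusted p under 0.05, 0 by DESeq2), where 0% of all rows rose or fell in edgeR and 0.0327% fell in DESeq2. En2 was higher in the combined than in the inhibitor library of its set in both sets, by 1.10 and 1.34 log2 (edgeR adjusted p = 0.594 with the block). Irx5 differed by 0.52 ± 0.18 log2 (edgeR adjusted p = 0.594 with the block). Lhx4 had 4 counts under DS3201 alone and 33 in the combined libraries, a difference of 2.87 ± 0.79 log2 (edgeR adjusted p = 0.594 with the block). Without the set 20 inhibitor library and with the block, Msx1 and Nkx6-2 were called higher.

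Of the 24 tested members 14 were higher in the combined than in the inhibitor library in both sets (58.3%), and 1, Dlx6os1, was lower in both, where 26% of all rows were higher and 26.6% lower in both sets. Members that passed the filter through the combined group had to be high there, so this count is a description. The interaction of DS3201 and the shRNA was not called for any member (0 at an unadjusted p under 0.05, 0 by DESeq2), where 0% of all rows passed. A response to DS3201 that differs with Ring1a knockdown was therefore not detectable for these genes with 2 libraries per group.

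Genes that work with these factors were read from lists of partners, signals and targets. For this and the next paragraph, 5.24% of all rows rose and 0.216% fell without the block. With the block 12.9% rose and 4.16% fell. Of tested genes under 1 CPM without DS3201, 30.5% rose without the block and 56.9% with it. Lmo1, Ldb2, Bmp5 and Slc32a1 had 0 counts without DS3201. Such genes passed the filter only through the libraries in which they were higher, so the counts in these lists are descriptions. Of 9 tested LIM cofactors Lmo1 rose (0 counts without DS3201 and 0.177 to 0.958 CPM with it, edgeR adjusted p = 0.0426), and Ldb2, Lmo2 and Lmo4 also rose with the block, while 0 fell. Of 11 TALE partners (Meis, Pbx, Pknox and Tgif genes) 0 rose and 0 fell in either fit, with a median of 0.01 log2. Of 6 Groucho co-repressors, which many homeodomain proteins recruit, Tle4 rose by 4.30 ± 0.87 log2 (edgeR adjusted p = 0.0407). With the block Tle1 rose and Tle2 fell as well.

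Of 9 tested patterning signals Bmp5 and Bmp7 rose and 0 fell, and Fgf9 and Gli1 also rose with the block. Bmp5 had 0 counts in the 4 libraries without DS3201 and 1.41 to 2.83 CPM with it (edgeR adjusted p = 0.0109), and Bmp7 had 0 to 0.0950 CPM without and 0.353 to 3.26 CPM with it (edgeR adjusted p = 0.0226). Of 6 tested downstream genes 2 rose and 0 fell, and 3 rose with the block. Among them Col10a1, a collagen of hypertrophic cartilage, rose by 2.05 ± 0.41 log2 (edgeR adjusted p = 0.0403). Slc32a1, the vesicular GABA transporter, rose with the block (edgeR adjusted p = 0.0169). Another 14 downstream genes were below the filter. Of 22 PRC1 subunits Rybp rose by 0.83 ± 0.14 log2 (edgeR adjusted p = 0.0227) and 5 rose with the block, and of 11 PRC2 subunits 0 passed without the block, while Ezh2 rose and Phf19 fell with it.

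Markers of other cell types moved with DS3201 too. With the block 12.9% of all rows rose and 4.16% fell, and 56.9% of tested genes under 1 CPM without DS3201 rose. Of 9 tested neuronal markers 6 rose with the block. Their summed level over 14 genes was 19.5 to 78.3 CPM without DS3201 and 102.8 to 146 CPM with it. In the control Snap25, Nefm, Stmn2, Elavl4 and Dcx were at 0 counts, and in the combined group none of the 14 was. Some of these rest on single counts: in sets 20 and 28 of the combined group Nefm had 1 and 1, Nefl 1 and 0 and Elavl3 0 and 1. Of the tested muscle, epithelial, endothelial and blood markers 3 of 5, 3 of 5, 3 of 7 and 2 of 6 rose with the block, and 0 fell. Their summed levels without DS3201 were 15.9 to 18.4, 92.7 to 189, 61.9 to 122.5 and 6.98 to 41.8 CPM, and with it 23.5 to 48.8, 156 to 338, 115 to 189.9 and 23.2 to 53.0 CPM. Myod1 and Myog were at 0 in every group but the combined, where each had 1 count, below the floor of 3 counts. Epcam and Krt5 were at 0 without DS3201, and Cldn5 and Tyrobp at 0 in every group. Of 13 tested fibroblast markers 3 rose and 5 fell with the block, and their summed level was 20260 to 23530 CPM without DS3201 and 14400 to 17170 CPM with it. The part of these shifts in the homeobox result was not tested.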

How the data were processed

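Poly(A) RNA of 8 libraries was sequenced, and the authors deposited 1 table of raw counts per gene and repeat subfamily. Per the submitters' processing notes Trim Galore, TopHat2 and mm10 were used; versions, the counting tool and its strand setting were not given in the sources used here. A further 8 columns could be tied to none of the labelled samples and stayed out. Rows were filtered with filterByExpr, scaled by TMM and fitted in R 4.3.3 with edgeR 4.0.16 (robust quasi-likelihood), all 4 groups in 1 fit, and DESeq2 1.42.0 was an alternative. CPM used TMM-scaled totals of the rows kept. Replicate numbers are labelled as separate batches, without a link from number to column prefix. Deviations from the group mean correlated between same-prefix libraries at r = 0.559 to 0.897 over 6 pairs of groups, so the fit with the prefix as replicate block is given where it changes a call. Intervals and floors cover counting error only. The fit was also run on simulated counts that held no difference between the sets, so that run says nothing about the replicate block. Members, lists and comparisons were chosen with earlier results of these data known. Named with values were the members past the threshold in a fit and the highest member of each family by mean CPM over the 8 libraries; Nkx3-2 and the members below the filter named with counts were chosen after their values were seen. The values of 1 tested member and of 1 gene of a list are not reported here. Locations are from GENCODE M21 (GRCm38, the same assembly as mm10).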

Additional observations from a re-analysis of the deposited data

Results flagged for a closer look

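For 2 members the difference with DS3201 had opposite directions under the 2 shRNAs in both sets. Irx5 differed by -0.27 ± 0.22 log2 with the control shRNA and by 0.21 ± 0.22 with the Ring1a shRNA, and the interaction was 0.48 ± 0.31 (edgeR adjusted p = 1). Lhx6 differed by 0.11 ± 0.28 and -0.42 ± 0.28 log2, and the interaction was -0.53 ± 0.40 (edgeR adjusted p = 1). Neither interaction passed the test.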

How the results depend on the processing

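For DS3201 over both shRNAs the 4 members called became 9 with the replicate block, 5 without the filter or with genes alone, 5 by DESeq2 and 4 with RLE scaling. With 1 library left out they were 0 to 3, and 4 to 9 with the block as well. With the control shRNA the 0 members became 4 with the block, 3 by DESeq2, 1 without the filter, 0 to 1 with a library left out, and 1 to 4 with the block as well. With the Ring1a shRNA the 0 became 6 with the block, 3 by DESeq2, 1 without the filter, 0 to 0 with a library left out, and 0 to 6 with the block as well. For the combined group against control the 1 became 7 with the block, 3 by DESeq2, 0 in a fit of those libraries alone, 0 to 2 with a library left out, and 1 to 11 with the block as well. Lower members numbered 0 to 1 over both shRNAs and with the control shRNA in the fits with the block and a library left out; members higher with the Ring1a shRNA under DS3201 numbered 0 to 2 and the interaction 0 to 1 there. These all came from the fit without the set 20 inhibitor library, in which the remaining inhibitor library is assumed to vary like the other groups. Shares of all rows for the fits with the block and by DESeq2 are given with each comparison above. No such share is given for fits without the filter, with genes alone, with RLE scaling or of the compared libraries alone. The same holds for the fits with a library left out, so all those counts describe the members alone. No member called in a comparison changed direction there under these alternatives; members that were not called could. The leave-one-out fits with the block, apart from that without the set 28 inhibitor library, were chosen after seeing the data. Of the 55 members 31 were below the filter on low counts and had no test.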
